A study of Mus musculus with 2 samples.

Results

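A set of 10 genes of goblet cells and gut epithelium was followed in total RNA from embryonic mouse kidney: Tff3, Agr2, Clca1, Spink4, Muc2, Cdx1, Cdx2, Lgals4, Fabp2 and Vil1. They were picked by name because their levels differ between the tissue pools, so the difference between the pools is described here and not tested. All 10 of the 10 were found among the 43346 mouse genes measured. The kidneys came from B6NCrl mouse embryos at embryonic day 15.5, of both sexes, with no treatment named in the labels. The replicate 2 pool held kidneys from 62 embryos and the replicate 1 pool kidneys from 78 embryos, and both belong to the only group. Each pool gave 1 library from 10 ng of RNA, and the total expected count was 39415002 for replicate 2 and 36244861 for replicate 1. Pooled tissue hides differences between single embryos, and the organ is measured whole.

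Goblet cells are the mucus-secreting cells of the gut lining. They release gel-forming mucins together with trefoil peptides, which protect and repair the epithelium, and they carry a large endoplasmic reticulum in which mucins fold. The caudal homeobox factors Cdx1 and Cdx2 set intestinal identity in the gut tube, and enterocytes, the absorptive cells beside the goblet cells, carry a brush border bundled by villin. Villin is also a component of the brush border of the kidney's proximal tubule, so not every gene of the group belongs to the gut alone.

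The regions just before the start of 3 of the genes are shown because these genes stood far apart in their difference between the pools: Agr2 and Muc2 were both lower in the replicate 2 pool, and Vil1 was at a similar level in both. Sequences are from RefSeq on GRCm38.p6, the mm10 build, the 250 bases before the start on the gene's own strand. They lie at chr12:35992675-35992924 for Agr2, chr7:141690090-141690339 for Muc2 and chr1:74409134-74409383 for Vil1, all on the plus strand. Capitals mark matches to 4 motifs searched on both strands: CATAAA, a core form bound by Cdx factors, TATAAA, the TATA box, AGATAA, a core form bound by GATA factors, and CAAAGTCCA, a form bound by Hnf4.
Agr2: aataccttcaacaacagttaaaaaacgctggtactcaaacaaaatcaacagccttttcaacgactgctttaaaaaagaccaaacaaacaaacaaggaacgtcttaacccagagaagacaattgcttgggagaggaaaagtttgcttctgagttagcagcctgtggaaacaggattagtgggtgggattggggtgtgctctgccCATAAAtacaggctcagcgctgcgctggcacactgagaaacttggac
Muc2: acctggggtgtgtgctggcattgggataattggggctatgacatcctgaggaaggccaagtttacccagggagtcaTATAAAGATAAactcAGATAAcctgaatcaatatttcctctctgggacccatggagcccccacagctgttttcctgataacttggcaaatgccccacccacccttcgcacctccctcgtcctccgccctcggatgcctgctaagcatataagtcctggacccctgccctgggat
Vil1: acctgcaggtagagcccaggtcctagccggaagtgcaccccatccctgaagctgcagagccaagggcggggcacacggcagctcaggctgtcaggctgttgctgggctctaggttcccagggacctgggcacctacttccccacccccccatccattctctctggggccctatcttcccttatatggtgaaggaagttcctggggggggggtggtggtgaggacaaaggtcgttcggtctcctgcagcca

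Agr2 held 1 CATAAA that began 47 bases before the start. Muc2 held TATAAA beginning 174 bases before the start and AGATAA beginning 169 and 159 bases before it. The first AGATAA shares its first base with the end of TATAAA. Vil1 held none of the 4 motifs in these letters. Promoters of 6 members were read, with those of Cdx2, Lgals4 and Fabp2 holding no match, and those of Tff3, Clca1, Spink4 and Cdx1 are not used here. Of the 6, 1 held CATAAA, 1 TATAAA, 1 AGATAA and 0 CAAAGTCCA. The shares over all 32851 promoters of the same length were 10.8%, 12.4%, 9.99% and 0.384%. A match describes letters and is no evidence of binding.

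The 5 secreted and secretory-pathway genes of goblet cells were low in the replicate 2 pool and several-fold more abundant in the replicate 1 pool. Levels are TPM, a relative abundance adjusted for transcript length, and ratios are TPM in the replicate 2 pool over the replicate 1 pool. Tff3, the trefoil peptide of intestinal goblet cells (ENSMUSG00000024029.4, chromosome 17, 31125306 to 31129646, minus strand), had 1.15 TPM in the replicate 2 pool and 40.73 TPM in the replicate 1 pool. These levels came from 12 and 393 expected counts. The log2 ratio of its TPM was -5.15, or 35.4 times lower in the replicate 2 pool. The exact Clopper-Pearson 95% interval of the ratio of CPM, the count scaled to the library total, was 20.2 to 69.5 times, for counting error only.

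Spink4, a Kazal-type peptide gene of goblet cells (ENSMUSG00000028415.4, chromosome 4, 40920052 to 40931395, plus strand), had 0.89 TPM in the replicate 2 pool and 26.17 TPM in the replicate 1 pool. Its 7 and 191 expected counts gave a log2 TPM ratio of -4.88, with an interval of 14.1 to 74.8 times lower. Agr2, a disulfide isomerase of the endoplasmic reticulum needed to make intestinal mucin (ENSMUSG00000020581.7, chromosome 12, 35992907 to 36004087, plus strand), had 1.09 TPM in the replicate 2 pool and 26.1 TPM in the replicate 1 pool. The log2 TPM ratio of Agr2 was -4.58, from 20 and 438 expected counts, with an interval of 15.2 to 39.4 times lower. The intervals of Tff3, Spink4 and Agr2 overlap, so an order among these 3 differences was not detectable at this depth.

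Clca1, a secreted metalloprotease that acts on the mucus layer (ENSMUSG00000028255.5, chromosome 3, 145003817 to 145032776, minus strand), had 0.48 TPM in the replicate 2 pool and 6.22 TPM in the replicate 1 pool. Its 36 and 432 expected counts gave a log2 TPM ratio of -3.70, with an interval of 9.28 to 18.9 times lower. Muc2, the gel-forming mucin of the intestine (ENSMUSG00000025515.11, chromosome 7, 141690340 to 141754693, plus strand), had 0.32 TPM in the replicate 2 pool and 1.58 TPM in the replicate 1 pool. Its 15 and 63 expected counts gave a log2 TPM ratio of -2.30, with an interval of 2.57 to 8.64 times lower. The upper end of the Muc2 interval lies below the lower ends for Tff3, Spink4, Agr2 and Clca1. Together the 5 goblet cell genes summed to 3.93 TPM in the replicate 2 pool and 100.8 TPM in the replicate 1 pool.

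The caudal homeobox factors were scarce in both pools. Cdx1 (ENSMUSG00000024619.8, chromosome 18, 61018862 to 61036199, minus strand) had 0.14 TPM in the replicate 2 pool and 1.93 TPM in the replicate 1 pool, from 6 and 78 expected counts. Its log2 TPM ratio was -3.79, with an interval of 6.21 to 39.7 times lower in the replicate 2 pool. Cdx2 (ENSMUSG00000029646.3, chromosome 5, 147300805 to 147307270, minus strand) had 0 counts in the replicate 2 pool, which allows up to 3 counts there, and 11 counts or 0.21 TPM in the replicate 1 pool. Set against that floor of 3 counts in the library, and with the 11 counts taken as exact, Cdx2 was at least 3.99-fold lower in the replicate 2 pool by CPM. The exact interval, which covers the counting error of both libraries, begins at 2.73 times lower. Within the replicate 1 pool, Cdx1 stood 9.19 times above Cdx2 in TPM.

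Of the epithelial genes, Lgals4 differed between the pools, Vil1 had similar values in both and Fabp2 was too scarce to tell. Lgals4, a galectin of gut epithelium (ENSMUSG00000053964.12, chromosome 7, 28833854 to 28841708, plus strand), had 9.7 TPM in the replicate 2 pool and 26.35 TPM in the replicate 1 pool. Its 274 and 737 expected counts gave a log2 TPM ratio of -1.44, with an interval of 2.54 to 3.37 times lower. This interval lies below those of Tff3, Spink4, Agr2, Clca1 and Cdx1, and it overlaps that of Muc2.

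Vil1, the villin gene (ENSMUSG00000026175.8, chromosome 1, 74409376 to 74435559, plus strand), had 9.34 TPM in the replicate 2 pool and 10.09 TPM in the replicate 1 pool. The 737 and 731 expected counts of Vil1 gave a log2 TPM ratio of -0.11, with an interval of 0.972 to 1.196 times lower. Fabp2, the intestinal fatty acid-binding protein of enterocytes (ENSMUSG00000023057.5, chromosome 3, 122895072 to 122899506, plus strand), had 0.13 TPM in the replicate 2 pool and 0.14 TPM in the replicate 1 pool. It was counted 3 times in each library, at the floor, so its interval ran from 0.146 to 8.12 times lower and a difference of several-fold was not detectable. The values of Vil1 go against the reason for which the genes were listed, and those of Fabp2 are too few to decide.

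**Figure D1:**
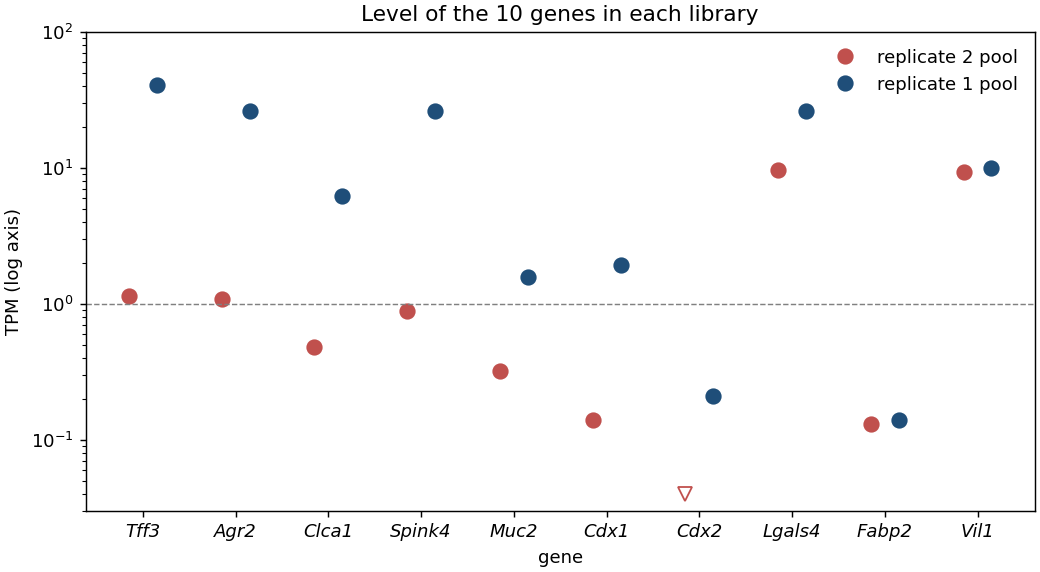
TPM on a log axis for the 10 genes, with 1 point per library, the replicate 2 pool left of the replicate 1 pool. The open triangle marks Cdx2 at 0 counts in the replicate 2 pool, and the dashed line marks 1 TPM. Tff3 stands at 1.15 and 40.73 TPM and Vil1 at 9.34 and 10.09 TPM in the replicate 2 and replicate 1 pools.

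In all, 8 of the 10 genes were at least 2-fold lower in TPM in the replicate 2 pool, 0 were at least 2-fold higher, and 2 were neither. That count includes Cdx2, which was too low for the count minimum used for all other genes. With a mean expected count of at least 20, which 8 members reached and Cdx2 and Fabp2 did not, 7 of the 8 were at least 2-fold lower. Tff3, Spink4, Muc2 and Cdx1, with 12, 7, 15 and 6 counts in the replicate 2 pool, reached it through the replicate 1 pool. Among all 16759 mouse genes with a mean expected count of at least 20, 1.28% were at least 2-fold lower in the replicate 2 pool. The share at least 2-fold higher there was 2.17%. The median log2 TPM ratio over the 10 genes was -3.0 with Cdx2 set at its floor, beside 0.02 over all 16759 genes. Since the genes were chosen for this difference, their counts and median support nothing further. Whether the replicate 2 pool held fewer cells of a type or less RNA per cell cannot be told apart in bulk tissue.

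The order of the genes also differed between the pools. In the replicate 2 pool Lgals4 and Vil1 led, and together they made up 81.9% of the 23.24 TPM that the 10 genes summed to. In the replicate 1 pool Tff3 led, Lgals4, Spink4 and Agr2 followed close together, and Lgals4 and Vil1 made up 26.1% of a sum of 139.5 TPM. Tff3 stood 0.123 times as high as Vil1 in the replicate 2 pool and 4.04 times as high in the replicate 1 pool. Tff3 lay above 64.6% of all mouse genes in the replicate 2 pool and above 90.6% in the replicate 1 pool.

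Over both libraries the means were 20.9 ± 28.0 TPM for Tff3, 18.0 ± 11.8 TPM for Lgals4, 13.6 ± 17.7 TPM for Agr2 and 13.5 ± 17.9 TPM for Spink4 (SD, n = 2). Vil1 followed at 9.71 ± 0.53, Clca1 at 3.35 ± 4.06, Cdx1 at 1.03 ± 1.27 and Muc2 at 0.95 ± 0.891 TPM (SD, n = 2). Fabp2 stood at 0.135 ± 0.00707 TPM and Cdx2 at 0.105 ± 0.149 TPM (SD, n = 2). Except for Vil1 over Clca1, no gene in this order differed from the next by more than the larger of their SDs. The SD exceeded the mean for Tff3, Agr2, Spink4, Clca1, Cdx1 and Cdx2.

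Proportions among the members are given within each library. Tff3 stood 1.06 times as high as Agr2 in the replicate 2 pool and 1.56 times in the replicate 1 pool, and 1.29 and 1.56 times as high as Spink4. Tff3 over Muc2 was 3.59 in the replicate 2 pool and 25.8 in the replicate 1 pool. As a yardstick for ordinary spread, 95% of the 4154 genes with a mean of 10 to 30 TPM and at least 1 TPM in both libraries had an absolute log2 TPM ratio under 0.37. Over the 2304 genes with a mean of 1 to 3 TPM the same limit was 0.92. The minimum of 1 TPM leaves out genes below it in either pool, among them Spink4, Clca1, Muc2 and Cdx1. These limits therefore do not describe genes that nearly vanish in 1 pool.

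**Figure D2:**
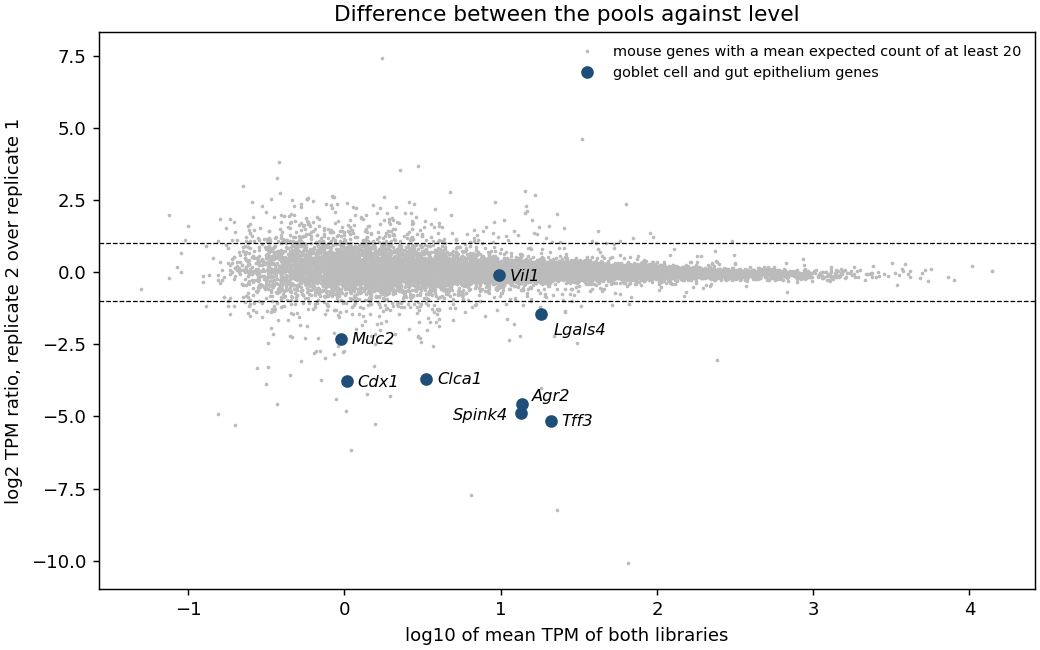
Log2 TPM ratio, replicate 2 over replicate 1, against log10 of the mean TPM, with 1 point per mouse gene of mean expected count 20 or more and counts in both libraries. Blue points are the 8 members in this range and dashed lines mark 2-fold. Tff3 lies at -5.15 and Vil1 at -0.11.

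The transcripts behind each gene were not used to choose the genes. Of the 10 genes, 5 had a single annotated transcript, namely Tff3, Clca1, Cdx1, Cdx2 and Fabp2. For 8 genes the same transcript held the largest share of the gene's transcripts in both libraries, by the authors' own percentages. Cdx2 had no share in the replicate 2 pool, and the leading transcript differed for Muc2. Spink4 was assigned wholly to Spink4-201 in both pools.

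Agr2-201, the coding form, held 92.48% of Agr2 transcripts in the replicate 2 pool and 99.71% in the replicate 1 pool. The rest went to Agr2-202, a form with a retained intron, with 1.75 and 1.52 counts. As a share of Agr2 counts Agr2-201 held 91.3% (exact 95% interval 68.3 to 98.8%) in the replicate 2 pool and 99.7% (98.4 to 99.9%) in the replicate 1 pool. The retained-intron form was counted too few times in either pool to compare. The coding form had 1.01 TPM in the replicate 2 pool and 26.02 TPM in the replicate 1 pool. Vil1-201 held 98.65% and 97.27% of Vil1 transcripts in the replicate 2 and replicate 1 pools.

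Lgals4 was split over several forms. The coding form Lgals4-201 held 66.71% of Lgals4 transcripts in the replicate 2 pool and 72.02% in the replicate 1 pool. As a share of Lgals4 counts this was 80.1% (exact 95% interval 74.7 to 84.5%) in the replicate 2 pool and 81.0% (78.0 to 83.8%) in the replicate 1 pool. The intervals of Lgals4-201 overlap. The retained-intron form Lgals4-203 held 11.86% of Lgals4 transcripts in the replicate 2 pool and 15.59% in the replicate 1 pool, and Lgals4-202 held 8.96% and 4.9%. Lgals4-205, a retained-intron form at the 3′ end, held 5.3% on 5.69 counts in the replicate 2 pool and 0% on 0 counts in the replicate 1 pool. As a share of Lgals4 counts its exact 95% intervals were 0.808 to 4.71% in the replicate 2 pool and 0 to 0.499% in the replicate 1 pool. They do not overlap, but all intervals of transcript shares leave out the error of dividing reads among forms. Lgals4-205 lies within the span of Lgals4-201, so a difference in its share was not established.

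Muc2 was counted over 8 partial transcript models, of which 4 received counts in the replicate 2 pool and 6 in the replicate 1 pool. Muc2-202, a short model of 711 nt, led with 38.18% in the replicate 2 pool on 2 counts, against 12.64% on 3 counts in the replicate 1 pool. Muc2-207, at the 3′ end of the gene (141744612 to 141754693), held 22.95% in the replicate 2 pool and led with 32.21% in the replicate 1 pool. It took 5.55 and 35.31 counts. Muc2-204, at the 5′ end (141690340 to 141698782), took 4 counts in the replicate 2 pool and 20 counts in the replicate 1 pool. By share of counts Muc2-207 led in both pools, so the change of leader rests on 2 to 3 counts of a short model. Both ends of the gene therefore had more counts in the replicate 1 pool, and the gene's TPM depends on the lengths of these partial models.

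**Figure D3:**
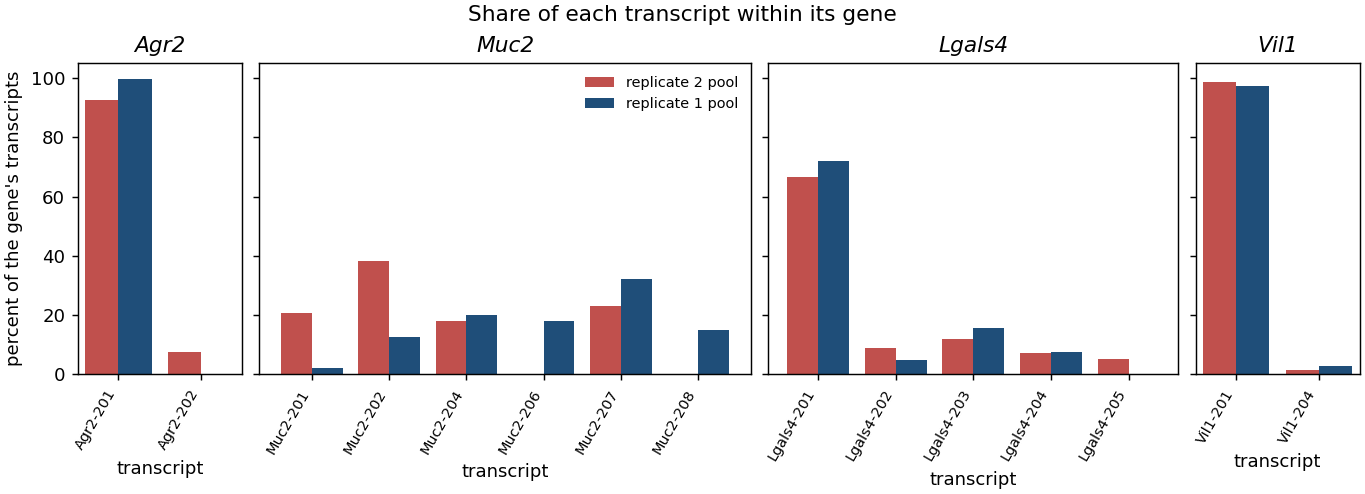
Share of a gene's RNA molecules, in percent, given to every transcript above 0 in the authors' deposited column, for Agr2, Muc2, Lgals4 and Vil1. Red bars are the replicate 2 pool and blue bars the replicate 1 pool. Lgals4-201 leads at 66.71% and 72.02%, and the leading Muc2 transcript differs.

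Reads behind the genes were assigned without sharing between genes. The quantifier's posterior SD of the count was 0 in both libraries for 10 of the 10 members. Vil1 overlaps the last part of Usp37 on the opposite strand, a gene with 26.82 TPM in the replicate 2 pool and 28.08 TPM in the replicate 1 pool. Fabp2 lies inside the antisense gene 4933405D12Rik, which had 10 counts in the replicate 2 pool and 3 counts in the replicate 1 pool. The sources used here do not give whether counting used strand. The values of Vil1 and Fabp2 are therefore uncertain, for Vil1 only in reads of the shared stretch, from 74435511 to 74435559. No other annotated gene overlaps a member.

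Other goblet and mucus genes were set beside the members from a list of 22. Of these, 11 reached the count minimum, 5 were at least 2-fold lower in the replicate 2 pool, 0 were at least 2-fold higher there, and the median log2 TPM ratio was -0.89. The 5 were Ern2, Spdef, Muc13, Fcgbp and Bcas1. Ern2, a stress sensor of the endoplasmic reticulum in mucus cells, had 0.03 TPM in the replicate 2 pool and 0.71 TPM in the replicate 1 pool, from 2 and 50 counts. Spdef, the transcription factor of goblet cell maturation, had 0.17 TPM in the replicate 2 pool and 1.33 TPM in the replicate 1 pool, from 6 and 48 counts. Both were counted only a few times in the replicate 2 pool. They reached the count minimum through the replicate 1 pool, as did Muc13 with 12 counts in the replicate 2 pool and 78 in the replicate 1 pool.

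Muc13, a membrane mucin, had 0.16 TPM in the replicate 2 pool and 1.12 TPM in the replicate 1 pool. Fcgbp, a protein of goblet cell mucus, had 24.33 counts in the replicate 2 pool and 298 counts in the replicate 1 pool. By TPM it was 5.58 times lower and by CPM 13.3 times lower in the replicate 2 pool. Atoh1, the transcription factor that starts secretory cell fate in the gut, missed the count minimum. It was named after its values were seen. Atoh1 had 0 counts in the replicate 2 pool and 25 counts in the replicate 1 pool, at least 9.06-fold lower by CPM against a floor of 3 counts with the 25 taken as exact. Its exact interval begins at 6.84 times lower. Capn9, also below the minimum, had 4 counts in the replicate 2 pool and 14 in the replicate 1 pool, with an interval of 1.2 to 15.9 times lower. Tff2, with 11 and 16 counts, and Gfi1, with 2 and 3, had intervals that include equal levels. Others lay the other way, with intervals that also include equal levels. Muc4 had 13 counts in the replicate 2 pool and 6.34 in the replicate 1 pool, Tff1 3.88 and 1.25, and B3gnt6 3 and 0.

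The most abundant genes of that list were at similar levels in both pools. They were Pdia5, a protein disulfide isomerase, Creb3l1, a transcription factor anchored in the endoplasmic reticulum, and Galnt12, which starts O-glycan chains. Pdia5 had 39.69 TPM in the replicate 2 pool and 42.62 TPM in the replicate 1 pool. Creb3l1 had 12.08 TPM in the replicate 2 pool and 11.48 TPM in the replicate 1 pool, and Galnt12 had 7.31 and 8.7 TPM. Of the 22 genes, 3 had 0 counts in both libraries: St6galnac1, Retnlb and Agr3. Zg16, a lectin of mature goblet cells, had 0 counts in the replicate 2 pool and 1 count in the replicate 1 pool.

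Enterocyte and brush border genes did not follow the goblet cell genes as a group. Of 31 listed, 25 reached the count minimum, 3 were at least 2-fold lower in the replicate 2 pool, 2 were at least 2-fold higher there and 20 were neither. Their median log2 TPM ratio was -0.01. The 3 lower genes were Cdh17, the intestinal cadherin, Gpa33, a surface protein of intestinal epithelium, and Myo1a, a brush border myosin. Cdh17 had 0.18 TPM in the replicate 2 pool and 1.21 TPM in the replicate 1 pool, from 16 and 100 counts. It reached the count minimum through the replicate 1 pool. Gpa33 had 0.57 TPM in the replicate 2 pool and 2.01 TPM in the replicate 1 pool, from 22 and 114 counts. By TPM it was 3.53 times lower and by CPM 5.64 times lower in the replicate 2 pool. Myo1a had 0.24 TPM in the replicate 2 pool and 0.55 TPM in the replicate 1 pool, from 21 and 44 counts.

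The 2 higher genes were Apob and Apoa1, apolipoproteins that liver and gut both make. Apob had 1.41 TPM in the replicate 2 pool and 0.53 TPM in the replicate 1 pool, and Apoa1 had 54.67 and 26.8 TPM. Among the most abundant of the list were the peptidases Dpp4 and Anpep, which the kidney's own proximal tubule carries. Dpp4 had 67.32 TPM in the replicate 2 pool and 62.53 TPM in the replicate 1 pool, and Anpep had 47.91 and 42.59 TPM. Some genes of the list were not detected or scarce. Sis, the sucrase-isomaltase gene, and Alpi, intestinal alkaline phosphatase, had 0 counts in both libraries, which allows up to 3 counts in each. Lct, the lactase gene, had 13 counts in the replicate 2 pool and 12 counts in the replicate 1 pool. Other genes of the list were counted more often. Fabp1 had 43 counts in the replicate 2 pool and 32 in the replicate 1 pool, Guca2a 53 and 88, and Mttp 349 and 214.

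Gut epithelium transcription factors that reached the count minimum were at similar levels. Of 18 listed, 16 reached the count minimum and 0 differed 2-fold in either direction, with a median log2 TPM ratio of 0.06. Sox9, a factor of epithelial progenitors, had 29.3 TPM in the replicate 2 pool and 31.11 TPM in the replicate 1 pool. Elf3, an epithelial ETS factor, had 20.95 TPM in the replicate 2 pool and 25.2 TPM in the replicate 1 pool. The largest ratios among the 16 were those of Ascl2, Creb3l3 and Elf3, at log2 TPM ratios of 0.63, -0.28 and -0.27. The gut homeobox gene Isx and Foxa2, both below the minimum, were named after their values were seen. Isx had 0 counts in the replicate 2 pool and 11 counts in the replicate 1 pool. Foxa2 had 7 and 17 counts, with an interval of 1.04 to 7.53 times lower in the replicate 2 pool. Among 8 intestinal stem and Paneth cell genes, 5 reached the count minimum and 0 differed 2-fold, with a median of 0.25. Its leading gene Smoc2, a matrix protein also made in mesenchyme, had 70.77 TPM in the replicate 2 pool and 58.6 TPM in the replicate 1 pool.

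Of 13 listed enteroendocrine genes, 6 reached the count minimum, 0 were at least 2-fold lower in the replicate 2 pool and 2 were at least 2-fold higher there, with a median of -0.12. The 2 were the granins Chgb and Chga, which the adrenal medulla also makes. Chgb had 25.1 TPM in the replicate 2 pool and 3.56 TPM in the replicate 1 pool, and Chga had 24.12 and 4.86 TPM. Sct, the secretin gene and the most abundant of the list, had 31.09 TPM in the replicate 2 pool and 32.47 TPM in the replicate 1 pool. The hormones of the distal gut, Pyy and Gcg, missed the count minimum and were named after their values were seen. Pyy had 0 counts in the replicate 2 pool and 27 counts in the replicate 1 pool, at least 9.79-fold lower by CPM against a floor of 3 counts with the 27 taken as exact. Its exact interval begins at 7.43 times lower. Gcg had 3 counts in the replicate 2 pool and 20 counts in the replicate 1 pool, with an interval of 2.15 to 38.1 times lower. Sst, the somatostatin gene, also missed the count minimum and lay the other way, with 17 counts in the replicate 2 pool and 1 count in the replicate 1 pool.

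**Figure D4:**
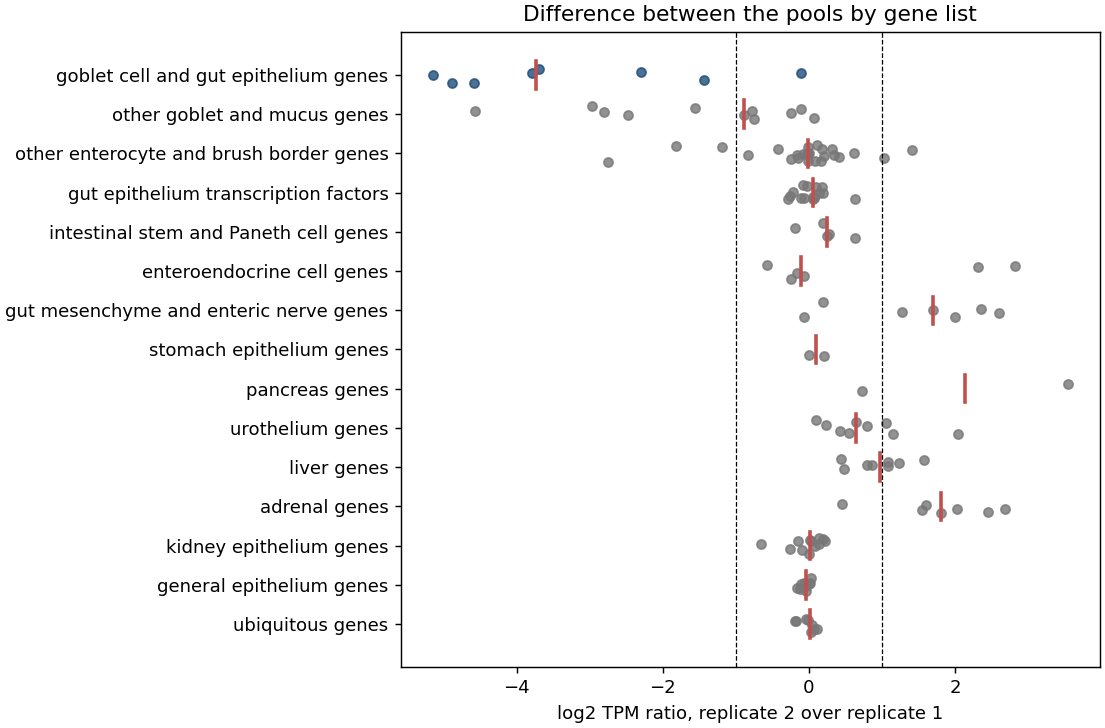
Log2 TPM ratio, replicate 2 over replicate 1, of each listed gene with a mean expected count of 20 or more and counts in both libraries, by list. Blue points are members, grey points other genes, red bars list medians and dashed lines 2-fold. The members' median is -3.74 over the 8 shown, that of the other goblet genes -0.89 and that of kidney epithelium 0.02.

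Some genes of the gut wall outside its epithelium lay the other way. Of 12 mesenchyme and enteric nerve genes, 7 reached the count minimum, 0 were at least 2-fold lower in the replicate 2 pool and 5 were at least 2-fold higher there, with a median of 1.70. The list summed to 131 TPM in the replicate 2 pool and 38.52 TPM in the replicate 1 pool. Actg2, the smooth muscle actin of gut and bladder, had 105.82 TPM in the replicate 2 pool and 20.62 TPM in the replicate 1 pool. Also higher were Hand2, Hoxd13 and Foxf1, transcription factors of mesenchyme, at log2 TPM ratios of 2.60, 2.00 and 1.70. Foxl1 and Ret did not pass 2-fold, at log2 TPM ratios of -0.06 and 0.19. Nkx2-3, a factor of gut mesenchyme below the count minimum, had 11 counts in the replicate 2 pool and 19 counts in the replicate 1 pool. Barx1 and Nkx3-2, factors of stomach mesenchyme, had at most 3 counts in either library.

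Markers of other organs were also counted. Of 10 stomach genes, 0 of the 2 that reached the count minimum differed 2-fold, and Gkn1, Gkn2, Gif and Muc5ac had 0 counts in both libraries. Of 8 airway genes 0 reached the count minimum, and the list summed to 0.38 TPM in the replicate 2 pool and 0.29 TPM in the replicate 1 pool. Of 9 pancreas genes 2 reached it, and Ctrb1, a chymotrypsinogen, had 4.19 TPM in the replicate 2 pool and 0.36 TPM in the replicate 1 pool. At least 2-fold higher in the replicate 2 pool were 3 of 9 urothelium genes, 4 of 8 liver genes and 6 of 7 adrenal genes, and 0 genes of these lists were at least 2-fold lower there. The urothelium genes summed to 53.64 TPM in the replicate 2 pool and 37.44 TPM in the replicate 1 pool, the liver genes to 489 and 245.3 TPM, and the adrenal genes to 169 and 46.38 TPM. The part of other tissues in the members' difference was not tested.

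Genes of the kidney's own epithelium did not pass 2-fold between the pools. Of 12 kidney epithelium genes and 9 general epithelium genes, 12 and 9 reached 1 TPM in both libraries and 0 of either differed 2-fold. Cdh16, the kidney-specific cadherin, had 135.02 TPM in the replicate 2 pool and 134.97 TPM in the replicate 1 pool. Aqp2 had the largest ratio of the 12, with 34.49 TPM in the replicate 2 pool and 54.38 TPM in the replicate 1 pool. Its log2 TPM ratio was -0.66, with an interval of 1.48 to 1.71 times lower in the replicate 2 pool. For genes with a mean of 30 to 100 TPM the 95% limit of spread was 0.27. Epcam, a surface protein of most epithelia, had 155.78 TPM in the replicate 2 pool and 175.26 TPM in the replicate 1 pool. Scaling the members to the general epithelium genes left 8 of 10 at least 2-fold lower in the replicate 2 pool. The median log2 TPM ratio of the general epithelium genes was only -0.05, so this scaling could hardly change that count. The part of epithelium in the members' difference was not tested.

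The genes most like the members were taken as the 10 other protein-coding genes with a mean expected count of at least 100 and the lowest TPM ratio, a likeness over only 2 libraries. In that ranking of 12783 genes, members included, Tff3 stood at place 5, Agr2 at place 6, Clca1 at place 8 and Lgals4 at place 26 from the lowest ratio, and Vil1 at place 2296. Of the 10 like genes, 1 was a goblet cell gene, Fcgbp. Another 7 are known from bone and its resorption or cartilage, namely Panx3, Ibsp, Mmp13, Dmp1, Mmp9, Spp1 and Ifitm5. The remaining 2, Krt1 and Krtdap, are known from the outer skin.

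Ibsp, the bone sialoprotein, had 0.12 TPM in the replicate 2 pool and 131.48 TPM in the replicate 1 pool. Mmp13, a collagenase of growing bone, had 0.15 TPM in the replicate 2 pool and 45.89 TPM in the replicate 1 pool. Spp1, osteopontin, which kidney tubules also make, had 52.59 TPM in the replicate 2 pool and 432.4 TPM in the replicate 1 pool. Krt1, a keratin of the upper epidermis, had 0.97 TPM in the replicate 2 pool and 5.19 TPM in the replicate 1 pool. All 10 were lower in the replicate 2 pool by the rule that chose them. Whether bone or skin tissue has a part in the members' difference was not tested.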

How the data were processed

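Total RNA over 200 nt was sequenced from 2 pools, per the labels. Reads were aligned to mm10 and quantified with GENCODE M4, per the text notes deposited beside the tables. The sources used here do not give the aligner, the quantifier or the use of strand. The expected counts, as deposited, estimate the reads of a gene or transcript, with ambiguous reads divided between features. The deposited TPM values are adjusted for length and scaled within a library together with the spike-ins. The deposited FPKM values served as an alternative only. Transcript shares in percent are deposited values, per the file headers. No column of another sample was present (0 columns).

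Identifiers were looked up in GENCODE M21 (mm10) for symbols and coordinates, and 42462 genes (98.0%) matched. The 10 members and the 15 other lists were chosen with earlier results of these data known, and the promoter motifs with the sequences in view. Promoters came from RefSeq. The naming rule took from each list the 3 genes of highest mean TPM and up to 3 of largest absolute ratio at a mean count of at least 20, and 10 most like the members. Not every gene it gives is printed, some items are not reported here, and list genes outside it were named after their values were seen.

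With 1 library per pool no test was possible, and no p was computed. Outside the members, a gene was counted past 2-fold at a mean expected count of at least 20. The members are counted both without and with that minimum. It applies to the mean of both libraries, so a gene can reach it through 1 pool alone. Intervals are exact Clopper-Pearson intervals at 95% of the CPM ratio, with counts rounded to whole numbers. They and the floor of 3 counts cover counting error only, and PCR copies could not be told from separate molecules. Alternative scalings used edgeR 4.0.16 (TMM) and DESeq2 1.42.0 (size factors) in R 4.3.3, and other steps Python 3.11.15 with scipy 1.17.1. The call rule and the scalings were checked on counts made with known changes.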

Additional observations from a re-analysis of the deposited data

How the results depend on the processing

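Of the 10 members, 6 to 8 passed the fold threshold as lower in the replicate 2 pool under every alternative run, with no count minimum for the members. The lowest count, 6, came with a pseudocount of 1 and left out Muc2 and Cdx2, and a 3-fold threshold gave 7, without Lgals4. FPKM, TPM rescaled over nuclear genes, CPM with TMM factors, DESeq2 size factors, spike-in counts, general epithelium genes, a pseudocount of 0.1 and a 1.5-fold threshold each gave 8. Of 72 log2 ratios of single members under these scalings and pseudocounts, 65 lay within the counting interval, 7 moved beyond it and 0 changed sign. The 7 were 5 under a pseudocount of 1, which shrinks low genes by construction, and Lgals4 and Vil1 at -1.90 and -0.46 by spike-in counts, a scaling that shifts the median of all genes by -0.34. The median level of the 10 members was 6.53 TPM over both libraries, 0.685 TPM in the replicate 2 library alone and 8.15 TPM in the replicate 1 library alone.

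The 5 other goblet and mucus genes lower in the replicate 2 pool fell to 1, Fcgbp, at a mean count of at least 100, since fewer genes were counted. Of 116 counts for the other lists under alternatives, 105 stayed within 1.5 times and 11 did not. At 3-fold, 0 liver, 0 enterocyte and 1 urothelium genes were higher in the replicate 2 pool, against 4, 2 and 3 at 2-fold. At a mean count of at least 100, 0 enterocyte genes were lower there, against 3, and 3 gut mesenchyme and nerve genes were higher, against 5. The pancreas genes higher there were 0 at that minimum and 3 with no filter beyond a count above 0 in both libraries, against 1. With no such filter 2 other goblet genes and 1 stomach gene were higher and 1 gut transcription factor and 1 enteroendocrine gene were lower, against 0 of each. No paired analysis was possible because there is 1 group. Members under 20 counts, Cdx2 and Fabp2, are limited by depth.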
